A study of Caenorhabditis elegans with 2 samples.

Results

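The regions described here are the tandem arrays of the telomeric hexamer in the nuclear genome of Caenorhabditis elegans. An array was any unbroken run of at least 4 exact copies of the unit TTAGGC, started at any base of the unit and read on either strand of ce11 (WBcel235). The rule found 422 arrays among 657 tandem arrays of any hexamer unit with at least 4 copies, and it used the genome sequence alone, not the peaks. An array was at a peak when it shared at least 1 bp with a listed peak. The working name for these regions is interstitial telomeric repeats, but the rule also takes in the chromosome ends, and 17 of the 422 arrays lay within 10 kb of an end. Those 17 are described apart below.

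Telomeres are long runs of a short repeat that cap linear chromosomes, and in this worm the repeat is the hexamer named above. Proteins that bind the repeat in its double-stranded or single-stranded form protect the end and control telomerase, the enzyme that lengthens it. Stretches of the same repeat also lie inside chromosomes, where they are known as interstitial telomeric sequences, and in this worm many sit in introns.

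The study asked where the zinc finger protein of the ztf-29 gene lies on chromatin, by ChIP-seq (immunoprecipitation of protein-bound DNA followed by sequencing). Embryos of strain RW12283 carry a TY1, EGFP and 3xFLAG tag, placed by CRISPR at the endogenous ztf-29 gene, and whole mid-stage embryos obtained by bleaching, labelled 0 hour, were used. Chromatin was sonicated, with a size range of 200 to 800 bp, and precipitated with an antibody against GFP. There were 2 biological replicates of this single group, so that no genotype, stage or treatment was compared, and untagged embryos or input DNA were not analysed here.

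Each replicate has its own list of peaks that passed a limit on the irreproducible discovery rate (IDR, the expected share of peaks that do not recur), 466 peaks in replicate 1 and 802 in replicate 2. A conservative list of 814 peaks and a full list of 1114 peaks come from both replicates together. Each list was cut from a longer list of ranked candidates, 38705 in replicate 1 and 43139 in replicate 2. The authors gave every peak a signal on an unstated scale, so it is set here beside its percentile among the candidates of the same list. Read depth is unknown.

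Most arrays were short. Their length had a median of 27 bp, with quartiles of 25 and 32 bp and a range of 24 to 432 bp. Exactly 4 copies were found in 260 arrays, 4 or 5 in 349, and 8 or more in 33. The forward strand read TTAGGC in 206 arrays and the reverse strand in 216. The arrays stood in repeat-rich surroundings, and the 300 bp centred on an array held a median of 13 exact units on its strand (quartiles 9 and 17). No unit of the opposite strand was present in that window for 384 of the 422 arrays. Within 500 bp of each other, 169 arrays had at least one neighbour, which gave 321 clusters, and 66 of the 68 clusters with 2 or more arrays read in a single direction.

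The following stretches from ce11 show what arrays at listed peaks look like. All but the last come from 7 of the 10 strongest conservative array peaks, with nearby arrays of the same tract where there were any. The last, in ZK131.11, was listed in replicate 1, at rank 455 of its 466 peaks. Each stretch is written 5′ to 3′ on the strand that reads TTAGGC, with the unbroken arrays in capitals and the bases around them in lower case. The lower-case bases show where a changed or missing base ends a run.
Y43F8B.2 intron, chrV:19528626-19528804, forward strand: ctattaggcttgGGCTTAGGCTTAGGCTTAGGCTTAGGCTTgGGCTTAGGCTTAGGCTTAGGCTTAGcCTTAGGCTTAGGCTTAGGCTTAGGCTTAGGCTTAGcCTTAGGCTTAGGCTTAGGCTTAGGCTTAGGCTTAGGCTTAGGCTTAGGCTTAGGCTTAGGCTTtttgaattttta
C39F7.6 non-coding RNA gene, chrV:1236734-1236919, reverse strand: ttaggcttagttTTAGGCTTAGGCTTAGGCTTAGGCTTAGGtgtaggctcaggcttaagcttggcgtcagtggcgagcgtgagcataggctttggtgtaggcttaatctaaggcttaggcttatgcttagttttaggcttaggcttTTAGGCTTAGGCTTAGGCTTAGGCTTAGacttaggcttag
Y51A2D.30 non-coding RNA gene, chrV:18588000-18588161, reverse strand: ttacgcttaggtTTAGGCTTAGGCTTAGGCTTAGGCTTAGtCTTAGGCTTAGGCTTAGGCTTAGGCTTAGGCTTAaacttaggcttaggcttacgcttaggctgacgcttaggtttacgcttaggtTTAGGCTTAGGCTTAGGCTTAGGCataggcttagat
grdn-1 intron, chrV:18597924-18598066, reverse strand: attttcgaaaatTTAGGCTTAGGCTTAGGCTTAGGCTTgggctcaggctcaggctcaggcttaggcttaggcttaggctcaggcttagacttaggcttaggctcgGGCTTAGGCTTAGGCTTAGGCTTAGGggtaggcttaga
unc-51 intron, chrV:20002343-20002390, forward strand: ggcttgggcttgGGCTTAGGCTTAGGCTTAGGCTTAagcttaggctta
fbxo-11.2 intron, chrIII:1052396-1052461, reverse strand: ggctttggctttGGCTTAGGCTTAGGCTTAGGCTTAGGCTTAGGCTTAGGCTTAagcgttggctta
gei-1 intron, chrIII:3346824-3346940, forward strand: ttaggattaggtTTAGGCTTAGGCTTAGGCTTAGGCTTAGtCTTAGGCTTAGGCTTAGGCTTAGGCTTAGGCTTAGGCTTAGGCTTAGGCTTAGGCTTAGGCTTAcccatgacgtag
ZK131.11 intron, chrII:13796443-13796494, reverse strand: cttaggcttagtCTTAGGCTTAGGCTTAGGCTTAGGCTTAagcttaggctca

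Changed units also flanked the arrays as a whole. In the 405 arrays over 10 kb from an end, 10 hexamers on each side were read in the frame of the array. The hexamer next to an array cannot be exact, since the run would then go on, and 59.5% of these were 1 base away from the unit. From the next hexamer to hexamer 10, 22.6% were exact and 24.2% were 1 base away. Over the whole genome 0.0194% of hexamers on either strand were the exact unit and 0.279% were 1 base away. Counting from 1 at the first T of TTAGGC, the most frequent single changes were T2C (12.3% of those 1 base away), C6T (10.9%), G4A (9.76%) and G5A (9.76%). Many arrays of the rule were thus the exact core of a longer, imperfect tract.

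**Figure D1:**
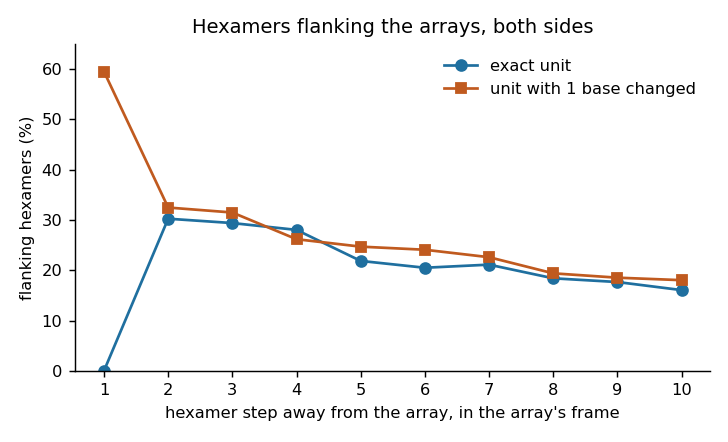
Share of hexamers in the flanks of 405 arrays (y axis, percent) that are the exact unit (circles) or 1 base away from it (squares), by hexamer steps away from the array (x axis), both sides together. Exact units made up 30.2% of hexamers at the step after the first and 16.05% at step 10.

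A larger share of these arrays than of other hexamer arrays or of genome tiles overlapped a listed peak. The conservative list held a peak at 61 of the 422 arrays, which is 14.5% (exact 95% interval 11.2 to 18.2%). The full list held 122 arrays, which is 28.9% (24.6 to 33.5%). Tandem arrays of other hexamer units were at a peak in 2.98% of 235 cases in the conservative list and in 7.23% in the full list. Of consecutive genome tiles of 27 bp, the median array length, 0.226% and 0.314% overlapped a peak of these lists. These intervals and all others below cover counting error only, and no test was made, because arrays share peaks, neighbours and libraries and are not replicates.

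The replicates differed in how many arrays they listed. Replicate 1 listed 13 arrays, a share of 3.08% (1.65 to 5.21%), and replicate 2 listed 129, a share of 30.6% (26.2 to 35.2%), for a mean of 16.8% ± 19.4 (SD, n = 2). The other hexamer arrays were at 0% in replicate 1, where 0 of 235 has an exact upper limit of 1.56%, and at 5.96% in replicate 2. Tiles of the genome overlapped a listed peak in 0.129% and 0.212% of cases. In both replicates the share of arrays was therefore above that of tiles and of other hexamer arrays. The intervals of the replicates did not overlap, but they treat arrays as separate, and the 13 arrays of replicate 1 came from 6 peaks. Counted as clusters of arrays, the shares were 1.87% of 321 in replicate 1 and 28.0% in replicate 2.

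**Figure D2:**
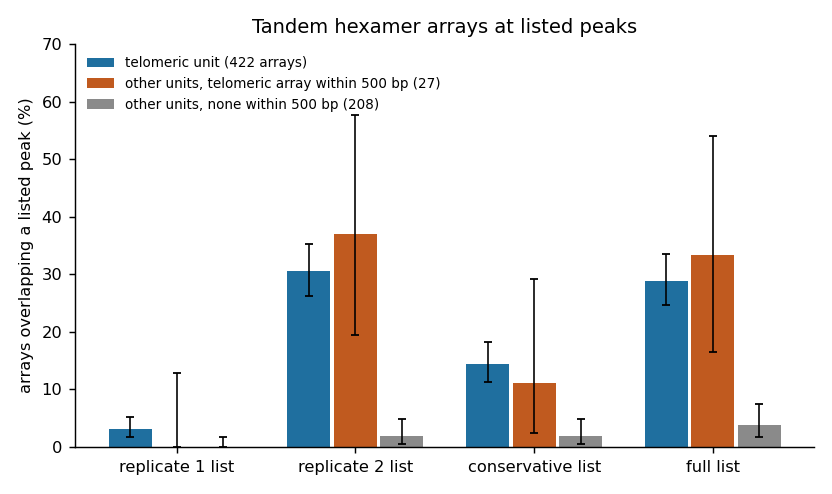
Share of arrays that overlap a listed peak (y axis, percent) in the 4 peak lists, for the 422 arrays of the telomeric unit and for 235 arrays of other hexamer units, split by whether a telomeric array lies within 500 bp. Bars give the share and lines the exact 95% interval. The telomeric arrays stand at 3.08% in replicate 1 and 30.6% in replicate 2.

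Counted from the peaks, 6 of the 466 peaks of replicate 1 held an array (1.29%), against 92 of the 802 peaks of replicate 2 (11.5%), 41 of the 814 conservative peaks (5.04%) and 85 of the 1114 full peaks (7.63%). Array peaks were mostly not among the strongest. A single array peak was among the 100 strongest of the conservative list, at rank 68, and 3 were among the 100 strongest of replicate 2, the first at rank 46. The median signal of conservative peaks with an array was 94.5, against 102.3 for the 773 without one. The summits lay close to the arrays, within 100 bp of the centre for 55 of the 61 arrays at a conservative peak. Read along the strand of TTAGGC, the summit sat at a median of 8 bp from the centre of the array (quartiles -40.5 and 42 bp), so that it leaned to neither side by more than its spread.

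The strongest array peak of the conservative list lay in an intron of eya-1 (WBGene00001377), the worm member of the Eyes absent family of phosphatases and transcription cofactors. Its array of 4 copies, at 14226590 to 14226613 on chromosome I, had a signal of 63.0 in replicate 1 and 152.4 in replicate 2, the 99.4th and 99.8th percentile of their candidates. Both replicates listed it, and its conservative signal was 219.2. A second array of 5 copies in the same intron, at 14226800 to 14226829, was inside the replicate 1 peak alone, since the peak of replicate 2 ended at 14226658, and it is the single array listed in replicate 1 and not in replicate 2.

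The next strongest was the Y43F8B.2 intron printed above, with 4 arrays separated by single bases and a signal of 42.9 in replicate 1 and 122.7 in replicate 2. It ranked at 133 in the conservative list, and both replicates listed it. The peak at C39F7.6 (signal 42.5 in replicate 1 and 106.9 in replicate 2) was listed in replicate 2 alone, with an IDR of 0.198 in replicate 1. This non-coding RNA gene lies 1423 bp from madd-2, which encodes a tripartite motif protein that acts in muscle arm extension and axon guidance. The peak at Y51A2D.30, another non-coding RNA gene, had a signal of 39.0 in replicate 1 and 102.6 in replicate 2, and both listed it. At T06A4.6, a non-coding RNA gene, an array of 10 copies had 37.9 in replicate 1 and 104.1 in replicate 2, and replicate 2 alone listed it.

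The intron of grdn-1, the girdin homologue, had a signal of 51.4 in replicate 1 and 77.8 in replicate 2, and both replicates listed it. The array in unc-51, the kinase that starts autophagy and is needed for axon guidance, had 37.3 and 97.4, and replicate 2 alone listed it. Its 300 bp window held 5 exact units, the fewest among these strongest arrays. The arrays in fbxo-11.2 (31.8 and 86.1), gei-1 (25.03 and 93.4) and between genes 4795 bp from Y75B8A.6 (35.9 and 77.3) were listed in replicate 2 and not in replicate 1. All 10 arrays had a higher signal number in replicate 2, but the scales of the replicates are not known to match. By percentile 9 of the 10 were higher in replicate 2, and grdn-1, at 99.13 and 99.08, was not.

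The other peaks of replicate 1 with an array were an intergenic pair 246 bp and 401 bp from Y43F8B.3 (42.9 in replicate 1 and 54.9 in replicate 2) and the ZK131.11 intron (31.7 and 56.3). The 13 arrays listed in replicate 1 thus came from 6 peaks, 4 of them on chromosome V, and all 6 peaks were also listed in replicate 2. No peak of replicate 1 with an array had a signal in the top 100, and the strongest, in eya-1, was at rank 154.

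Among the ranked candidates, arrays were found in both replicates. Of the 422 arrays, 204 had a candidate in replicate 1 and 313 in replicate 2, with 181 in both, 23 in replicate 1 alone and 132 in replicate 2 alone. Their candidates were high in signal, with a median percentile over arrays of 84.9 in replicate 1 and 97.0 in replicate 2. Of the distinct candidates with an array, 36.1% of 166 (28.8 to 44.0%) were in the top 10% by signal in replicate 1, where 10% of all candidates are by construction. In replicate 2 the share was 75.3% of 259 (69.6 to 80.4%), again against 10%. The step from candidate to listed peak separated the replicates further. In replicate 1, 6 of the 166 candidates with an array were listed (3.61%), against 1.20% of all candidates. In replicate 2, 92 of 259 were listed (35.5%), against 1.86% of all. In the conservative and full lists 16.9% and 31.6% of candidates with an array were listed, against 1.48% and 2.05% of all. The median IDR of candidates with an array was 0.764 in replicate 1 and 0.0701 in replicate 2, where 0.01 was the limit.

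Of the 181 arrays with a candidate in both replicates, 158 had the higher percentile in replicate 2 and 23 in replicate 1, with a median gap of 6.73 percentile points. The rank correlation of the replicate signals over 147 distinct pairs of candidates was 0.39, a description of places that share libraries and neighbours.

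**Figure D3:**
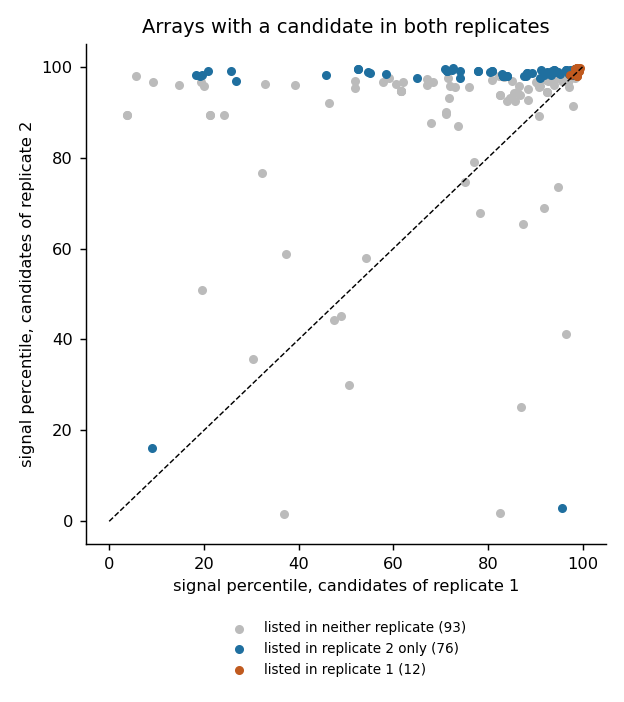
Signal percentile among all candidates of replicate 1 (x axis) and of replicate 2 (y axis) for the 181 arrays with a candidate in both; each point is an array, coloured by the replicate lists that hold it, and the dashed line marks equal percentiles. Most points lie near the top edge, with 158 of the 181 above the line.

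Few array peaks of replicate 2 were listed in replicate 1. Of the 92 array peaks of replicate 2, 6 overlapped a listed peak of replicate 1, which is 6.52% (2.43 to 13.7%). Of the 710 other peaks of replicate 2, 312 did, which is 43.9% (40.3 to 47.7%). Among peaks above the list's median signal the shares were 10.5% of 38 and 66.7% of 363. Without peaks near a tRNA, snoRNA or snRNA gene, which no array had within 200 bp, the other peaks above the median came to 54.0% of 215. As candidates of any rank, 77.2% of the array peaks and 91.0% of the others were seen in replicate 1. In the opposite direction all 6 array peaks of replicate 1 were listed in replicate 2, against 68.5% of the other 460. Depth and IP strength of the replicates are unknown, so their part in this difference was not tested.

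The conservative list joined these arrays differently. Of its 61 arrays, 12 were listed in both replicates, 35 in replicate 2 alone and 14 in neither replicate's own list. Over the 4 lists, 152 arrays (36.0%) were at a peak in at least one.

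The share at a peak was higher where the wider window held more repeat units, up to 24 of them. With at most 8 exact units in 300 bp, 5.81% of 86 arrays were at a conservative peak and 8.14% at a peak of replicate 2. The shares were 6.67% and 20.8% at 9 to 12 units, 17.9% and 38.9% at 13 to 16, and 23.0% and 52.5% at 17 to 20. They were highest at 21 to 24 units, 33.3% (18.6 to 51.0%) and 55.6% (38.1 to 72.1%) of 36 arrays, and lower at 25 or more, 20.8% and 33.3% of 24 arrays, with intervals that overlap widely. In replicate 1 the classes of up to 20 units stood between 0% and 3.16%, and the upper classes at 13.9% of 36 arrays and 16.7% of 24 arrays. The listed arrays of these upper classes lay under the peaks at Y43F8B.2, Y51A2D.30, ZK131.11 and near Y43F8B.3. All of these peaks but that of ZK131.11 covered several arrays, each counted, so the higher shares rest on few peaks.

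By unbroken copies, replicate 2 listed 27.7% of the 260 arrays of 4 copies, 34.8% of the 89 of 5, 37.5% of the 40 of 6 or 7, 42.9% of the 21 of 8 to 19 and 16.7% of the 12 of 20 or more. The intervals of these classes overlap. In replicate 1 the same classes stood at 3.08%, 4.49%, 0%, 4.76% and 0%, with no rise by copies. Shorter runs, outside the rule, were at 16.3% for 2935 runs of 2 copies and 21.6% for 930 runs of 3 copies in replicate 2. Without those within 500 bp of an array, 248 of 2066 runs of 2 copies (12.004%) and 15.6% of 635 runs of 3 copies were at a peak of replicate 2. Arrays of at least 8 copies were at a conservative peak in 15.2% of 33 cases and arrays of 4 to 7 copies in 14.4% of 389, a difference of 0.76 percentage points. The upper class includes the 12 arrays of 20 or more copies, which all lie at chromosome ends and of which 0 were at a conservative peak. The rank correlation of the signal with units in 300 bp was 0.21 over 204 arrays in replicate 1 and 0.41 over 313 in replicate 2, while with unbroken copies it was 0.05 and 0.12. These are descriptions, since neighbouring arrays share a window and a candidate.

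**Figure D4:**
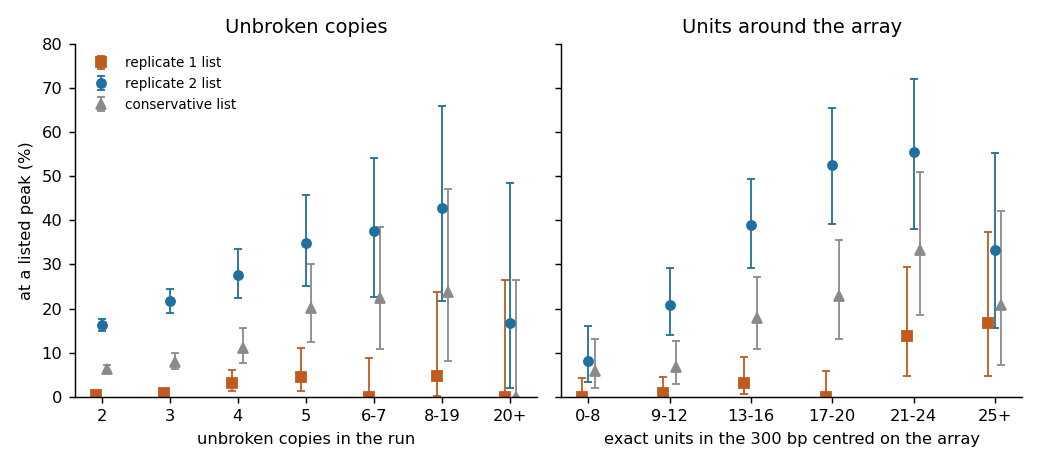
Share at a listed peak (y axis, percent) of runs of the telomeric unit by unbroken copies (left) and of the 422 arrays by exact units in the 300 bp centred on the array (right), in the lists of both replicates and the conservative list. Points give the share and lines the exact 95% interval; runs of 2 and 3 copies are outside the rule for arrays. In replicate 2 the share rises from 8.14% at up to 8 units to 55.6% at 21 to 24 units.

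Arrays with a neighbour within 500 bp were at a conservative peak in 23.1% of 169 cases, against 8.70% of 253 without one. In replicate 1 the shares were 7.10% and 0.395%, and in replicate 2 they were 45.6% and 20.6%. The order was the same in both replicates. A peak can cover several arrays of a cluster, and 15 of the 41 conservative array peaks held 2 or more.

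The shares of the strands had overlapping intervals. Arrays on the forward strand were at a conservative peak in 14.1% of 206 cases (9.64 to 19.6%) and those on the reverse strand in 14.8% of 216 (10.4 to 20.3%). Introns of protein-coding genes held 248 arrays (58.8%), in 158 host genes, intergenic sequence held 105, non-coding RNA genes 49, untranslated exons 13 and pseudogenes 7. No array lay in a coding exon. Intron arrays were at a conservative peak in 12.1% (8.31 to 16.8%) and intergenic arrays in 17.1% (10.5 to 25.7%), a difference of -5.05 percentage points with overlapping intervals. In replicate 2 the shares were 24.6% (19.4 to 30.4%) and 43.8% (34.1 to 53.8%), while in replicate 1 they were 3.63% and 1.90%, the opposite order. Within introns, the repeat read in the direction of the host gene in 144 arrays and against it in 104. Replicate 1 listed 9 of the 104 that read against the gene and 0 of the 144 that read with it, but the 9 come from the peaks of 4 genes. Replicate 2 listed 26.9% and 22.9% of these classes.

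Genes with several arrays at peaks were few. In Y43F8B.2 all 4 arrays were listed in both replicates, under a shared peak. In grdn-1 all 4 arrays were at conservative peaks, in 2 places of the gene, and 2 of them were listed in each replicate. In zfh-2, which encodes a zinc finger homeodomain protein, 4 of 11 arrays were at a conservative peak, 3 were listed in replicate 2 and none in replicate 1. In R12A1.3 all 3 arrays were at a conservative peak and 2 were listed in replicate 2. In lin-29, the zinc finger factor of the larval-to-adult switch, 2 of 6 arrays were listed in replicate 2, and in Y37D8A.2 3 of 4 were, with none of either gene in the conservative list or in replicate 1.

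The arrays kept to the chromosome arms. Of the 422, 401 (95.02%) lay in the outer 25% at either end, and their distance to the nearest end had a median of 1660 kb. A single class, from 5 to 7.5% of the chromosome length, held 102 arrays, of which 21.6% were at a conservative peak and 41.2% at a peak of replicate 2. The 21 arrays of the central part were at a conservative peak in 9.52% of cases (1.17 to 30.4%), a difference of 5.19 percentage points between arms and centre that the interval does not resolve. By chromosome there were 109 arrays on I, 92 on II, 82 on III, 36 on IV, 96 on V and 7 on X. Chromosome V had 22.9% of its arrays at a conservative peak (14.95 to 32.6%) and 10.4% listed in replicate 1, and the other autosomes stood between 8.33% and 13.4% and between 0% and 1.83%.

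**Figure D5:**
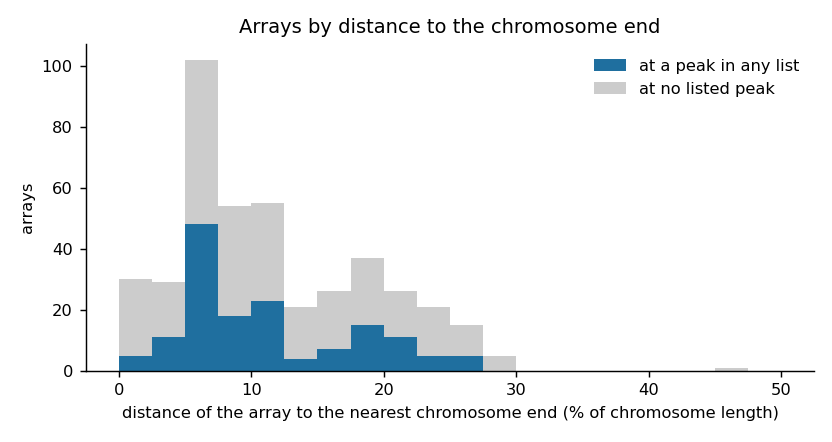
Number of arrays (y axis) by distance to the nearest chromosome end in percent of the chromosome length (x axis, bins of 2.5%), stacked by whether the array is at a peak in any of the 4 lists (152 arrays) or in none (270 arrays). The bin from 5 to 7.5% is the fullest, with 102 arrays.

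The chromosome ends themselves were mostly not listed. All 12 ends of the 6 assembled chromosomes carry an array, and these are the 12 arrays of 20 or more copies, up to 72 copies. Of the 17 arrays within 10 kb of an end, 0 were in the conservative list, with an exact upper limit of 19.5%, and 0 in replicate 1. The full list held the left end of chromosome IV, and replicate 2 held that end (signal 64.9) and the right end of X (50.04). As candidates 9 of the 17 were seen in replicate 1 and 13 in replicate 2, where their median percentiles were 61.6 and 94.7. Both medians are the value of a candidate at the left end of V that several neighbouring arrays share and that is counted for each of them. The 5 longest arrays, at the left ends of I and X and the right ends of IV, III and V, were listed nowhere. At the left end of X the signal was 21.2 in replicate 1 and 35.1 in replicate 2, and at the right end of III 14.9 and 42.4. The left end of II had 30.0 and 63.5, and its IDR was within the limit in replicate 2 (0.00110), in the conservative candidates (0.00287) and in the full candidates (0.000890), although none of these lists held it. Over the arrays within 10 kb of an end, the signal ranged from 14.9 to 30.0 in replicate 1 and from 32.5 to 64.9 in replicate 2. Copies of the repeat look alike in sequence, and at the 12 ends the share of 50-base words in the 300 bp window that occur once in the genome ranged from 0% to 48.2%.

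Over all arrays the share did not follow this measure of uniqueness in a single direction. Where at most 50% of the words were unique, 0 of 33 arrays were at a conservative peak and 9.09% at a peak of replicate 2. Between 50% and 80%, 0% and 27.3% of 22 arrays were. Where 80% to under 100% were unique, 29.3% and 61.3% of 75 arrays were, and where all were unique, 13.4% and 25.3% of 292. The median number of units in 300 bp was 24 in the least unique class, 18 in the class from 80% to under 100% and 11 where all words were unique. Read length and the treatment of reads that match several places are unknown, so their part in these shares was not tested.

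No candidate of any ranked list was at 68 of the 422 arrays, of which 13 had at most 50% unique words. The longest among these were the right end of I (26 copies), the left end of V (23 copies), a pair of arrays of 14 and 13 copies on I in paralogous genes that both carry the name ZK1025.2, and an array of 13 copies in an intron of prhg-1. Unique words made up 22.9% of the window at the right end of I, 2.29% at the left end of V and 0% at each of the others. Unbroken arrays of 13 or more copies were thus found both at strong candidates and at none, and the part of uniqueness in this was not tested.

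Arrays of other hexamers were set apart by whether a telomeric array was near. Of the 235, 27 had a telomeric array within 500 bp, and 37.0% of these (19.4 to 57.6%) were at a peak of replicate 2, against 1.92% (0.526 to 4.85%) of the other 208. The shares were 33.3% (16.5 to 54.0%) and 3.85% (1.67 to 7.44%) in the full list and 11.1% (2.35 to 29.2%) and 1.92% (0.526 to 4.85%) in the conservative list, where the intervals overlap. Of the arrays at a peak, 10 of 14 in replicate 2, 9 of 17 in the full list and 3 of 7 in the conservative list had a telomeric array near, and replicate 1 listed 0. Of the 18 that were at a peak in any list, 15 had a unit 1 base away from TTAGGC, among them TTGGGC (6 of 12 arrays at a peak), TCAGGC (3 of 27), TTAGGA (3 of 3), TTTGGC (2 of 6) and TTAGAC (1 of 12). Arrays with a unit 1 base away were a minority of the 235, so their share among the 18 was above their share of all. None of the 36 arrays of ATAGGC, also 1 base away, was at a peak. Neither the ATAGGC arrays nor the 3 of TTAGGA had a telomeric array within 500 bp. All 27 arrays with a telomeric array near had a unit 1 base away. Nearness and likeness of the unit therefore cannot be told apart in the shares of these 27.

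The genes for telomere proteins were looked up as the other side of the same pathway. None of 11 had a listed summit in its promoter window (500 bp before a start to 100 bp after it) in any of the 4 lists. They were pot-1, pot-2, pot-3 and mrt-1, which encode proteins that bind the single-stranded repeat, tebp-1 and tebp-2, which bind the double-stranded repeat, and trt-1, the telomerase reverse transcriptase. The others were the checkpoint genes mrt-2, hus-1 and clk-2 and the HMG protein gene hmg-5. Over all 19973 protein-coding genes 1.65% had such a summit in the conservative list, 1.11% in replicate 1 and 1.26% in replicate 2, so that 0 of 11 is near the background.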

How the data were processed

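The authors deposited peak lists on ce11 for 2 biological replicates and for both together, per the file headers and the labels. In these lists the deposited signal is the value per peak in column 7, and the deposited score is the IDR scaled to at most 1000, with minus log10 of the global IDR as a further score in the ranked lists. The sources used here name no aligner or caller, and no read length or depth.

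Arrays were found as maximal exact runs of period 6 in the RefSeq sequence of WBcel235, in Python 3.11.15 with numpy 2.4.6, pandas 2.3.3, scipy 1.17.1 and matplotlib 3.10.9. Hosts came from Ensembl release 115. Overlap meant at least 1 bp, and shares have exact (Clopper-Pearson) 95% intervals. Words of 50 bases gave uniqueness in 300 bp. The search was tested on simulated data with planted arrays and peaks. Alternatives changed the copies, the overlap rule, clusters, the lists and the regions left out.

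The text names the arrays of the 10 strongest conservative peaks, those listed in replicate 1, the 5 with most copies, those within 10 kb of an end, genes with 3 or more arrays at a peak, and the 5 longest arrays without a candidate. The members and lists were chosen with earlier results of these data known.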

Additional observations from a re-analysis of the deposited data

How the results depend on the processing

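No paired analysis was possible because there is a single group. At least 3 copies gave shares of arrays at a peak of 9.99% (conservative), 22.0% (full), 1.55% (replicate 1) and 24.4% (replicate 2). At least 6 copies gave 19.2%, 1.37% and 35.6% in the conservative, replicate 1 and replicate 2 lists. Peaks at or above the median signal of each list gave 7.35%, 14.7%, 0.474% and 14.2% (conservative, full, replicate 1, replicate 2). Counting arrays within 200 bp of a peak gave 37.0% in replicate 2. The conservative list could not be called again from a single library, and in its place the own lists of the replicates gave 3.08% and 30.6%. The mean over replicates ranged over the same values.

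The difference between intron and intergenic arrays reversed to 21.7 percentage points for arrays of at least 6 copies, and the cause was not tested. Over all sites 14 of 73 such arrays were at a conservative peak, so the reversal rests on few arrays, and it has no interval here. The 73 include the 12 arrays of 20 or more copies, all at chromosome ends and several of them intergenic, of which 0 were at a conservative peak. The difference by copies was 3.00 points in replicate 2, 3.17 for clusters and 5.71 when divided at 6 copies. The difference between arms and centre was 14.5 points with a wider outer part on each side (1 in 3), 15.4 in the full list and 12.1 in replicate 2. The wider outer part left almost no array in the centre. The 14.5 points are therefore in effect the share of the outer arrays alone, and they have no interval here.

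The share of peaks with an array was 7.25%, 13.3% and 20.8% for at least 3 copies in the conservative, full and replicate 2 lists. It was 1.60%, 1.89%, 0.215% and 2.99% for at least 6 copies and 0.614%, 0.898%, 0.215% and 1.37% for at least 8 (conservative, full, replicate 1, replicate 2). It was 9.23% in replicate 2 with the summit within 50 bp, and 0.429% above the median signal of replicate 1. The other 54 alternative values stayed within the interval or spread of their results. For the mean over replicates the spread was the SD of 2 replicates. The single replicates, at 3.08% and 30.6%, could not leave that SD, so they show no stability. Differences between classes were also set against the SD of the 2 replicates. Intron minus intergenic thus counted as within it at -17.2 points in the full list and -19.2 in replicate 2, against -5.05 in the conservative list. Counting whole units in phase, and leaving out arrays with under 80% unique words, were chosen after seeing the data and are among these 54.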

Other observations

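Replicate 2 listed 4 peaks whose signal was below the median of its own candidates, and 2 of these held an array. Of all its 802 peaks, 92 did (11.5%). In the other lists 0 such low peaks held an array, of 24 in the conservative list, 42 in the full list and 3 in replicate 1. The 2 low array peaks of replicate 2 lie in madd-2 (signal 10.4) and in Y51A2D.35 (signal 14.2). The lowest signal of a listed peak without an array in replicate 2 was 14.5. Their IDR in replicate 2 was 0.000154 and 0.00242. Neither was in the conservative list or in the list of replicate 1, and both were chosen after their values were seen.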
